A study of Mus musculus with 8 samples.

Results

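Type I interferon-stimulated genes are the genes that a cell switches on when interferon alpha or beta binds its receptor, and 36 of 38 such genes, chosen by name, were followed here across 8 skin arrays. A gene was followed where a probe set carried its symbol alone, and the probe set with the highest mean stood for it. Dtx3l and Ifi27l2a share their probe sets with a neighbour or a copy and were left out, so the 36 genes are part of 22180 measured. The study applied imiquimod (IMQ) cream, an agonist of Toll-like receptor 7 that brings on psoriasis-like inflammation, to male mice, and asked how the response depends on the IL-22 receptor and on alloferon, an insect-derived peptide. The label WT stands for C57BL/6 males and KO for B6.Cg-Il22ra1tm1.1Koll/J males, with no age given. Arrays WT_IMQ, KO_IMQ, KO_IMQ_B and KO_IMQ_Allo come from skin under 83.3 mg of 5% IMQ cream a day from day 1 to day 7, and WT_CTRL, KO_CTRL, KO_CTRL-B and KO_Allo carry no IMQ in their label. Allo marks alloferon cream, given 6 hours after IMQ where both were used. What the letter B marks, what the CTRL skin received, in which cells the receptor gene was altered and whether RNA of several mice shared an array are not given in the sources used here.

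Each label has 1 array, so no label has replicates of its own. Arrays whose labels differ in IMQ alone form 4 pairs, named here the WT plain and KO plain pairs (WT_CTRL with WT_IMQ, KO_CTRL with KO_IMQ), the KO B pair and the KO Allo pair, and the spread among pairs is the error behind every test below. It measures differences between these arrays, which may be technical. Being a spread of IMQ differences, it does not measure how far pairs of like genotype differ in level. Tests of level, KO against WT or alloferon against other KO arrays, leave that variation out of their error. Values are log2 levels, on which 1 unit is a 2-fold difference, and levels of different genes cannot be set against each other because each probe set has its own brightness. The array medians over all probe sets lay between 5.68 and 5.73. Marker levels differed widely between arrays. The median of 8 hair follicle markers ran from 5.12 on KO_IMQ to 10.93 on KO_CTRL-B, and that of 6 skeletal muscle markers from 7.95 on KO_IMQ_Allo to 11.75 on KO_CTRL. Keratinocyte markers, 7 in all, had medians of 10.89 to 12.25. Since probe sets differ in brightness, these levels do not by themselves establish the tissue. In bulk skin, fewer cells of a type and less RNA per cell cannot be told apart.

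Interferon alpha and beta act through the receptor IFNAR1/IFNAR2, whose kinases JAK1 and TYK2 set off the assembly of ISGF3. This complex, to which STAT2 and IRF9 belong, binds the interferon-stimulated response element (ISRE) in target promoters. Toll-like receptor 7 signals through MyD88 and IRF7 to interferon alpha, most strongly in plasmacytoid dendritic cells, which are known to enter skin inflamed by imiquimod. The targets block viruses at many steps, and several of them, such as Usp18, feed back on the pathway.

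As examples with and without the core ISRE letters, promoters of 6 members are printed. Each window is the 250 bases before the RefSeq start site (GRCm38.p6), 5′ to 3′ on the gene's strand. Capitals mark the core letters, GAAA and a further GAAA with any 2 bases between, on either strand.
Isg15: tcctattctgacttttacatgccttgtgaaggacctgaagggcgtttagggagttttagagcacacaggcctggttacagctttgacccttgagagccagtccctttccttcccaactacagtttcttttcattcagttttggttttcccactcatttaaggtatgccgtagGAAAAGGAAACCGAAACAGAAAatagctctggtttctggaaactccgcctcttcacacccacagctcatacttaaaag
Ifit1: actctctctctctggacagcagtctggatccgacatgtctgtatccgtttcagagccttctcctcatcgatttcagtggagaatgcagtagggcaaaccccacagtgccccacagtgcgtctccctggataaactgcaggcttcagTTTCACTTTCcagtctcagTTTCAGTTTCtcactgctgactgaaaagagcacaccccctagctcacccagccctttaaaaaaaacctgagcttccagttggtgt
Ifit3: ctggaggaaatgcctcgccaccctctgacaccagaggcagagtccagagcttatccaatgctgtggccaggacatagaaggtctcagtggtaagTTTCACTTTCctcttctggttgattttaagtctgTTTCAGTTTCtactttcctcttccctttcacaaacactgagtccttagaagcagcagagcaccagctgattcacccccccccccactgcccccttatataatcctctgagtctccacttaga
Oas3: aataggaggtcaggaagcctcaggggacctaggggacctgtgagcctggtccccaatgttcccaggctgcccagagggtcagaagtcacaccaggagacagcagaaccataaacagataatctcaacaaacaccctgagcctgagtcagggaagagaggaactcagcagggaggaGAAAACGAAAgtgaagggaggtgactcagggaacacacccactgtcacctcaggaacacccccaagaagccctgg
Trim25: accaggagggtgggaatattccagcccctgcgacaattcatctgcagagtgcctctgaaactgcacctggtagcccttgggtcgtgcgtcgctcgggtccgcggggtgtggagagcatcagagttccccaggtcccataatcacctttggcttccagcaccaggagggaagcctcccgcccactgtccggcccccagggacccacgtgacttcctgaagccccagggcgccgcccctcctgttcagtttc
Oasl2: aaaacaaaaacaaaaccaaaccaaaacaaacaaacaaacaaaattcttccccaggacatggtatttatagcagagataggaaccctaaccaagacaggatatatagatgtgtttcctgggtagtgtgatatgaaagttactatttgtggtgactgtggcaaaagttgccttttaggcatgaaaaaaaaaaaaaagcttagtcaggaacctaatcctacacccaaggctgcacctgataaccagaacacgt
The windows lie at chr4:156200819-156201068 (minus strand) for Isg15, chr19:34640639-34640888 (plus) for Ifit1, chr19:34583279-34583528 (plus) for Ifit3, chr5:120777660-120777909 (minus) for Oas3, chr11:88999153-88999402 (plus) for Trim25 and chr5:114896684-114896933 (plus) for Oasl2. Isg15 held 3 overlapping matches, the first starting 78 bases before the start site. Ifit1 and Ifit3 held 2 matches each, Oas3 held 1, and Trim25 and Oasl2 held 0. In windows that also take in the first transcribed bases, 12 of the 27 measured members with a RefSeq window held the letters (44.4%), against 3.99% of 27025 genes. With the last base of these letters dropped, 15 of 27 members (55.6%) and 9.76% of genes did, Trim25 among the added members. A match is a description of the letters, and no match says only that they are not in this window. Set beside the IMQ differences described next, the median was 0.33 in the WT pair for the 12 members with a match and 0.34 for the 15 without. It was -0.0045 with and -0.05 without in KO plain, 0.03 and 0.21 in KO B, and -0.32 and -0.14 in KO Allo. With the last base dropped, the order turned in the WT pair, at 0.39 with and 0.31 without. It also turned in KO Allo, at -0.29 with and -0.35 without, and held in KO plain and KO B. These differences were not tested.

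The interferon-stimulated genes went different ways with IMQ in different pairs, and they sat low or high together on single arrays. Of the 36, 33 were higher on the IMQ array in the WT pair, 15 in the KO plain pair, 24 in the KO B pair and 5 in the KO Allo pair. Among all genes, 47.4%, 50.3%, 48.0% and 50.1% were higher in these pairs. The medians of the 36 differences were 0.33, -0.05, 0.21 and -0.30 log2 units, with an SD of 0.28 over the 4 medians. Over all genes the same medians lay between -0.02 and 0.00. WT_CTRL and KO_IMQ_Allo were the low arrays. On WT_CTRL, 32 of 36 members lay below their own mean over the 8 arrays and 14 had their lowest value; 14.3% of all genes had their lowest value there. On KO_IMQ_Allo, 33 lay below their own mean and 12 had their lowest value, against 12.1% of all genes. KO_IMQ_B was the high array, with 30 members above their own mean and 14 at their highest value, against 9.80% of all genes. KO_CTRL held the highest value of 9 members and of 16.1% of all genes. The members' range over the 8 arrays had a median of 0.76 log2 units, against 0.55 over all genes, and 7 members ranged over 1 unit or more, as did 14.0% of all genes.

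**Figure D1:**
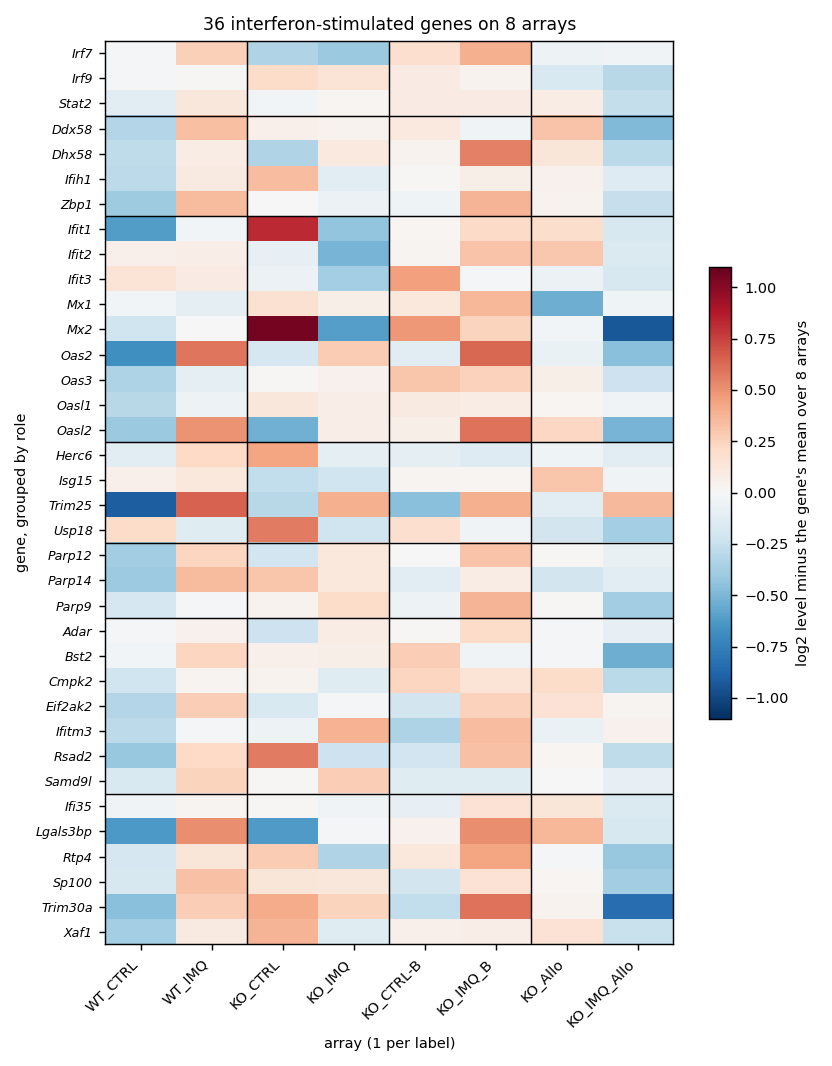
Rows are the 36 measured genes grouped by role and columns the 8 arrays; colour gives the log2 level minus the gene's own mean over the arrays, red above and blue below. Most rows are blue on WT_CTRL (32 of 36 below their mean) and KO_IMQ_Allo (33 of 36), and most are red on KO_IMQ_B (30 of 36 above).

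The factors that carry the signal differed in how far they ranged. Irf7 read 6.81 on WT_CTRL and 7.08 on WT_IMQ, 6.49 on KO_CTRL and 6.41 on KO_IMQ, 7.00 on KO_CTRL-B and 7.21 on KO_IMQ_B, and 6.76 on KO_Allo and 6.78 on KO_IMQ_Allo. Irf7, whose product amplifies interferon alpha production, was lowest on both KO plain arrays and highest on both KO B arrays and WT_IMQ. Without and with IMQ, Irf9 was at 7.62 and 7.64 in WT plain, 7.83 and 7.78 in KO plain, 7.72 and 7.67 in KO B, and 7.47 and 7.32 in KO Allo. Stat2 read 7.28 on WT_CTRL and 7.53 on WT_IMQ, 7.38 on KO_CTRL and 7.43 on KO_IMQ, 7.49 on KO_CTRL-B and 7.49 on KO_IMQ_B, and 7.49 on KO_Allo and 7.14 on KO_IMQ_Allo. IRF9 and STAT2 are subunits of ISGF3, and the genes ranged over 0.51 (Irf9) and 0.39 (Stat2) log2 units, against a median of 0.76 for members; both were lowest on KO_IMQ_Allo.

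Among the cytosolic nucleic acid sensors, Ddx58 encodes RIG-I, Ifih1 MDA5, Dhx58 LGP2 and Zbp1 a sensor of Z-form nucleic acids. Dhx58 read 5.54 on WT_CTRL and 5.90 on WT_IMQ, 5.49 on KO_CTRL and 5.93 on KO_IMQ, 5.86 on KO_CTRL-B and 6.38 on KO_IMQ_B, and 5.96 on KO_Allo and 5.52 on KO_IMQ_Allo. It was higher with IMQ in 3 pairs and lower in the KO Allo pair. Ddx58 read 6.92 on WT_CTRL and 7.57 on WT_IMQ, 7.29 on KO_CTRL and 7.27 on KO_IMQ, 7.35 on KO_CTRL-B and 7.20 on KO_IMQ_B, and 7.55 on KO_Allo and 6.76 on KO_IMQ_Allo. The highest value was on WT_IMQ and the lowest on KO_IMQ_Allo. All 4 sensors were higher on the IMQ array in the WT pair (median 0.52) and all 4 lower in the KO Allo pair (median -0.37). In the KO plain pair 1 of 4 was higher and in the KO B pair 3 of 4.

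IFIT proteins bind foreign RNA, OAS enzymes make the 2-5A messenger that activates RNase L, and MX proteins are dynamin-like GTPases. Without and with IMQ, Ifit1 was at 5.48 and 6.06 in WT plain, 6.92 and 5.66 in KO plain, 6.11 and 6.30 in KO B, and 6.29 and 5.92 in KO Allo. The KO_CTRL value stood above the other 7 arrays. Mx2 read 4.26 on WT_CTRL and 4.47 on WT_IMQ, 5.53 on KO_CTRL and 3.87 on KO_IMQ, 4.96 on KO_CTRL-B and 4.72 on KO_IMQ_B, and 4.44 on KO_Allo and 3.55 on KO_IMQ_Allo. It had the widest range of all members, 1.98 log2 units, from KO_IMQ_Allo to KO_CTRL. C57BL/6 mice are known to carry defective Mx1 and Mx2 alleles, so these transcripts are no sign of a working protein. Mx1 read 4.27 on WT_CTRL and 4.21 on WT_IMQ, 4.47 on KO_CTRL and 4.37 on KO_IMQ, 4.42 on KO_CTRL-B and 4.67 on KO_IMQ_B, and 3.77 on KO_Allo and 4.26 on KO_IMQ_Allo. It was lowest on KO_Allo. Oas2 read 6.66 on WT_CTRL and 7.92 on WT_IMQ, 7.15 on KO_CTRL and 7.61 on KO_IMQ, 7.22 on KO_CTRL-B and 7.96 on KO_IMQ_B, and 7.26 on KO_Allo and 6.88 on KO_IMQ_Allo. The 3 IMQ arrays without alloferon were the highest of the 8. Without and with IMQ, Oasl2 was at 5.55 and 6.45 in WT plain, 5.42 and 6.02 in KO plain, 6.01 and 6.55 in KO B, and 6.18 and 5.44 in KO Allo. Oasl2, which encodes an OAS-like protein, was higher with IMQ in the 3 pairs without alloferon, and KO_IMQ_Allo was 0.74 below KO_Allo. The remaining Ifit2, Ifit3, Oas3 and Oasl1 ranged over 0.83, 0.83, 0.65 and 0.43 log2 units. Ifit3 has a near-identical copy, Ifit3b, from which a probe set may not tell it apart. By pair, 7 of the 9 genes of this group were higher with IMQ in WT plain, 3 in KO plain, 5 in KO B and 1 in KO Allo.

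ISG15 is a ubiquitin-like protein, HERC6 its ligase in mice, USP18 the protease that removes it and also a brake on the receptor, and TRIM25 a ubiquitin ligase that activates RIG-I. Trim25 read 7.26 on WT_CTRL and 8.82 on WT_IMQ, 7.86 on KO_CTRL and 8.56 on KO_IMQ, 7.70 on KO_CTRL-B and 8.56 on KO_IMQ_B, and 8.06 on KO_Allo and 8.52 on KO_IMQ_Allo. All 4 IMQ arrays lay above all 4 others, without overlap. Usp18 read 6.47 on WT_CTRL and 6.14 on WT_IMQ, 6.85 on KO_CTRL and 6.05 on KO_IMQ, 6.45 on KO_CTRL-B and 6.24 on KO_IMQ_B, and 6.06 on KO_Allo and 5.90 on KO_IMQ_Allo. Each IMQ array lay below its own control, though the groups overlap, and KO_CTRL was highest. Isg15 read 5.15 on WT_CTRL and 5.21 on WT_IMQ, 4.82 on KO_CTRL and 4.87 on KO_IMQ, 5.12 on KO_CTRL-B and 5.11 on KO_IMQ_B, and 5.40 on KO_Allo and 5.05 on KO_IMQ_Allo. The gene that names the group thus ranged over 0.58 log2 units and showed no order by IMQ. Herc6 ranged over 0.58 as well, highest on KO_CTRL at 7.74.

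The PARP family members Parp9, Parp12 and Parp14, ADP-ribosyltransferases induced by interferon, were higher with IMQ in all 3 genes in WT plain and KO B, with medians of 0.62 and 0.31. In KO plain 2 of 3 were higher (median 0.16), and in KO Allo 1 of 3 was (median -0.10). Without and with IMQ, Parp14 was at 7.16 and 7.91 in WT plain, 7.87 and 7.68 in KO plain, 7.44 and 7.64 in KO B, and 7.36 and 7.44 in KO Allo. It was lowest on WT_CTRL and highest on WT_IMQ, with KO_CTRL close behind.

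Of the other effectors, Rsad2 encodes viperin, which makes a chain-terminating nucleotide, and its chromosomal neighbour Cmpk2 supplies the substrate. Rsad2 read 5.69 on WT_CTRL and 6.32 on WT_IMQ, 6.68 on KO_CTRL and 5.88 on KO_IMQ, 5.90 on KO_CTRL-B and 6.43 on KO_IMQ_B, and 6.13 on KO_Allo and 5.83 on KO_IMQ_Allo. KO_CTRL was highest, as for Ifit1. Ifitm3 read 8.49 on WT_CTRL and 8.76 on WT_IMQ, 8.73 on KO_CTRL and 9.16 on KO_IMQ, 8.45 on KO_CTRL-B and 9.13 on KO_IMQ_B, and 8.71 on KO_Allo and 8.83 on KO_IMQ_Allo. IFITM3 restricts viral entry, and its 4 IMQ arrays lay above the 4 others without overlap. Cmpk2, Eif2ak2 (the RNA-activated kinase PKR), Adar (an RNA-editing enzyme), Samd9l and Bst2 (tetherin) ranged over 0.42 to 0.81 log2 units.

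The rest have less settled roles. Trim30a read 5.26 on WT_CTRL and 5.99 on WT_IMQ, 6.13 on KO_CTRL and 5.97 on KO_IMQ, 5.44 on KO_CTRL-B and 6.31 on KO_IMQ_B, and 5.76 on KO_Allo and 4.88 on KO_IMQ_Allo. The KO_IMQ_Allo value was the lowest and KO_IMQ_B the highest. Without and with IMQ, Lgals3bp was at 7.53 and 8.67 in WT plain, 7.54 and 8.14 in KO plain, 8.21 and 8.67 in KO B, and 8.53 and 7.99 in KO Allo. Lgals3bp, a secreted galectin-binding glycoprotein, was higher with IMQ in 3 pairs and 0.54 lower in the KO Allo pair; its second probe set gave the same 4 signs. Rtp4 read 6.32 on WT_CTRL and 6.63 on WT_IMQ, 6.79 on KO_CTRL and 6.17 on KO_IMQ, 6.62 on KO_CTRL-B and 6.94 on KO_IMQ_B, and 6.48 on KO_Allo and 6.09 on KO_IMQ_Allo. It was lowest on KO_IMQ_Allo and KO_IMQ. The 6 genes of this set include Ifi35, Sp100 and Xaf1. By the probe set with the highest mean, all 6 were higher with IMQ in WT plain and in KO B. In KO plain 1 of 6 was higher, and in KO Allo all 6 were lower. The second brightest Sp100 probe set was instead higher with IMQ in all 4 pairs, at 6.49 on KO_Allo and 6.61 on KO_IMQ_Allo. Dimmer Sp100 probe sets split in that pair, at 4.22 and 4.18 and at 3.61 and 4.27.

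**Figure D2:**
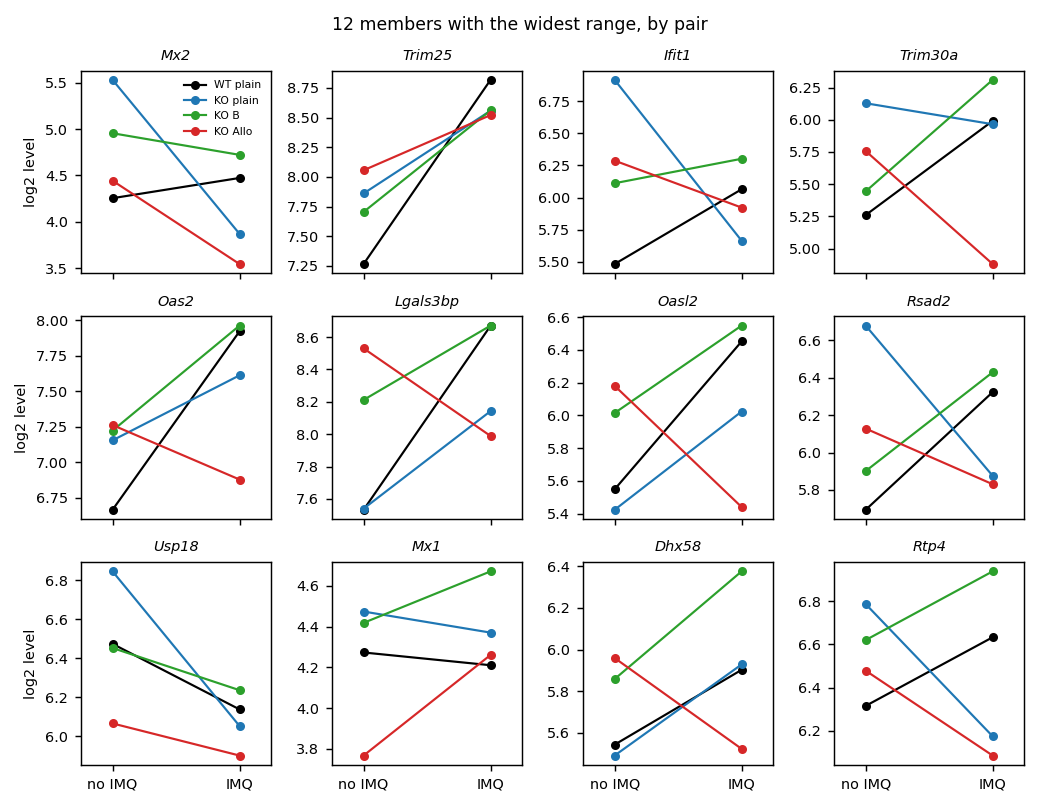
Each panel shows 1 of the 12 members with the widest range over the 8 arrays; points are single arrays, lines join the arrays of a pair, and the vertical axis is the log2 level. Lines of Trim25 run upward in all 4 pairs, lines of Usp18 downward in all 4, and for Oas2, Oasl2, Lgals3bp and Dhx58 the KO Allo line runs against the other 3.

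Whether IMQ shifted a member on average was tested with all 4 pairs in 1 fit. In limma, 0 of 36 members passed an adjusted p under 0.05, where 1.90% of all genes were called higher and 1.19% lower with IMQ. The unadjusted p was under 0.05 for 3 members (18.8% of all genes). These were Trim25 (0.89 ± 0.18 log2 units, adjusted p = 0.0515), Ifitm3 (0.38 ± 0.12, adjusted p = 0.147) and Usp18 (-0.38 ± 0.13, adjusted p = 0.179), where ± is limma's standard error over 4 pairs. Trim25 stood at the threshold, since its adjusted p was 0.0217 to 0.0483 under 5 other settings and 0.031 without the KO Allo pair, while it was 0.13 to 0.195 when another pair was left out. For 32 of 36 members the 95% interval of the difference lay within 1 log2 unit of 0 on both sides. Among the canonical members, Isg15 measured -0.06 ± 0.11, Ifit1 -0.21 ± 0.28, Irf7 0.11 ± 0.10 and Rsad2 0.01 ± 0.24. The 4 IMQ arrays lay wholly above the 4 others for 2 members, Trim25 and Ifitm3 (5.96% of all genes), and wholly below for 0 (5.04%). The 685 calls over all genes depend on which pairs are kept: 0 genes were called without the WT pair, 2 without KO B, 260 without KO plain and 1307 without KO Allo. Without KO Allo, 3 of 36 members passed, where 1307 of 22180 genes did. The members were Trim25, Oas2 (0.82 ± 0.17, adjusted p = 0.0481) and Oasl2 (0.68 ± 0.12, adjusted p = 0.0334).

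**Figure D3:**
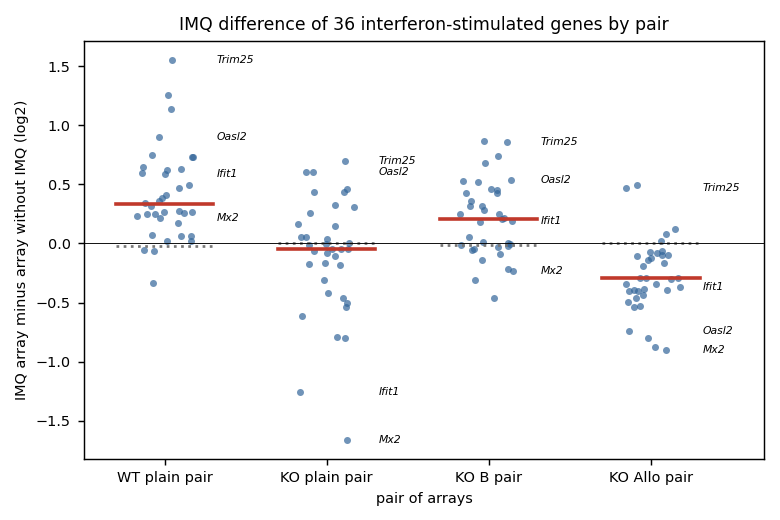
Each point is 1 of the 36 genes, placed at the IMQ array minus the array without IMQ in log2 units, for the 4 pairs. Red bars are the medians of the 36 genes (0.33, -0.05, 0.21 and -0.30) and dotted bars the medians of all genes; the named genes show that Trim25 is above 0 in every pair while Mx2 and Ifit1 are far below 0 only in some.

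Each member's signs over the 4 pairs were set beside those of all genes. Higher in WT plain and KO B and lower in KO plain and KO Allo was the commonest, with 10 members (27.8%, against 3.89% of all genes): Ifi35, Ifih1, Ifit1, Ifit2, Rsad2, Rtp4, Sp100, Trim30a, Xaf1 and Zbp1. For Ifi35 and Sp100 this pattern rests on the probe set with the highest mean. The second Ifi35 probe set was higher in KO plain, at 5.72 on KO_CTRL and 5.85 on KO_IMQ, and the second brightest of Sp100 was higher in all 4 pairs. Higher in all but KO Allo followed with 9 (25%, against 7.92%), among them Oas2, Oasl2, Dhx58, Parp12 and Eif2ak2. Only 2 members, Trim25 and Ifitm3, were higher in 4 of 4 pairs (12.6% of all genes), and 2, Ifit3 and Usp18, were lower in 4 of 4 (14.3%). These shares are a description, since interferon-stimulated genes on 1 array are not independent of each other.

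By genotype, the WT pair gave the largest upward differences. The members past 1 log2 unit were Trim25 at 1.55, Oas2 at 1.26 and Lgals3bp at 1.14, 3 of 36 where 2.50% of all genes were that much higher, and 0 members were that much lower (2.12%). In the KO plain pair 0 were that much higher (2.69% of all genes) and 2 were that much lower (2.22%), Mx2 at -1.66 and Ifit1 at -1.25. In KO B and KO Allo 0 members reached 1 unit either way, where 1.83% and 0.771% of all genes were that much higher and 1.29% and 0.938% lower. At the lower threshold of 0.58 log2 units, or 1.5-fold, the members higher with IMQ numbered 12 in the WT pair, 3 in KO plain, 4 in KO B and 0 in KO Allo (7.06%, 7.06%, 5.25% and 3.77% of all genes), and those lower 0, 5, 0 and 4 (6.36%, 6.38%, 4.46% and 3.69%). With the spread among KO pairs as the error, the WT effect passed for 0 of 36 members in limma (0.00% of all genes each way; unadjusted p under 0.05 for 6 members and 10.8% of all genes). Those 6 were Trim25 (1.55 ± 0.21, adjusted p = 0.241), Parp14, Oas2, Lgals3bp, Parp12 and Zbp1. The KO effect was fitted over the KO plain, KO B and KO Allo pairs together. It passed in limma for 0 of 36 as well (0.00% each way), with an unadjusted p under 0.05 for 3 members and 13.9% of all genes. Those 3 were Trim25 at 0.67 ± 0.12 (adjusted p = 0.136), Mx2 at -0.93 ± 0.27 (adjusted p = 0.241) and Ifitm3 at 0.41 ± 0.14 (adjusted p = 0.302).

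The KO response took in the KO Allo pair, so alloferon enters it. The difference between the WT and KO responses was tested in the same fit. It was above 0 for 33 of 36 members (47.1% of all genes), with a median of 0.47 log2 units, and 26 members had their largest IMQ difference of the 4 pairs in WT, against 23.6% of all genes. By member, 0 of 36 were called in limma (0.00% each way), with an unadjusted p under 0.05 for 4 members and 4.12% of all genes. They were Trim25 (0.88 ± 0.25), Parp14 (0.71 ± 0.25), Xaf1 (0.77 ± 0.28) and Ddx58 (0.97 ± 0.36), each with an adjusted p = 0.983. The 95% interval for Ifit1 ran from -0.32 to 2.44, and for only 12 of 36 members did the interval stay within 1 log2 unit of 0. The median was 0.32 without the KO Allo pair and 0.56 without KO B.

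WT_CTRL, the low array, enters that difference and also the next one. Without IMQ, 29 of 36 members were higher on KO_CTRL than on WT_CTRL (50.8% of all genes) and 30 were higher on KO_CTRL-B (52.4%), with medians of 0.25 and 0.28 log2 units. Ifit1 at 1.44 and Mx2 at 1.27 were past 1 unit on KO_CTRL, 2 of 36 against 0.446% of all genes, and 0 were past it on KO_CTRL-B (0.532%); 0 members were that much lower on either (0.893% and 0.609% of all genes). The 2 KO arrays also differed from each other: Ifit1, Rsad2, Trim30a, Mx2 and Herc6 were the furthest above KO_CTRL-B on KO_CTRL, and Lgals3bp, Oasl2, Ifit3, Irf7 and Dhx58 the furthest below. Muscle markers had a median of 11.75 on KO_CTRL and 9.43 on KO_CTRL-B, and hair follicle markers 8.19 and 10.93; their part in the difference was not tested. Under IMQ the order was not the same. On KO_IMQ 27 of 36 members were lower than on WT_IMQ (median -0.23), and on KO_IMQ_B 23 were higher (median 0.09), where 53.9% and 54.3% of all genes were higher. Members past 1 unit numbered 0 in either (0.712% of all genes higher and 0.582% lower on KO_IMQ, 0.681% and 0.541% on KO_IMQ_B). Averaged over IMQ status, KO plain and KO B minus WT had a median of 0.12 and 0 members passed in limma (0.00% each way; unadjusted p under 0.05 for 1 member and 4.97% of all genes). That member was Oas3, at 0.38 ± 0.14 (adjusted p = 0.976).

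The alloferon array without IMQ and the one with IMQ stood differently among the KO arrays. For KO_Allo, 18 of 36 members were higher than on KO_CTRL (52.2% of all genes) and 22 higher than on KO_CTRL-B (49.4%). The medians were 0.00 and 0.06. Past 1 log2 unit below KO_CTRL was 1 member, Mx2 at -1.09 (1.56% of all genes), and 0 were past it above (1.60%). KO_IMQ_Allo was the lowest of the IMQ arrays for most members. Of the 36 members, 30 were lower than on KO_IMQ (median -0.16), 34 lower than on KO_IMQ_B (median -0.40) and 33 lower than on WT_IMQ (median -0.33); over all genes 50.3%, 50.6% and 53.8% were higher. Against KO_IMQ_B, 4 members were lower by 1 log2 unit or more, 11.1% of members where 0.771% of all genes were: Trim30a at -1.43, Mx2 at -1.18, Oasl2 at -1.11 and Oas2 at -1.09. Against KO_IMQ only Trim30a was, at -1.09 (0.807% of all genes), and against WT_IMQ 3 were, Trim30a at -1.11, Oas2 at -1.05 and Oasl2 at -1.01 (0.924%). No member was 1 unit higher in any of the 3 (0.676%, 0.500% and 0.893% of all genes against KO_IMQ, KO_IMQ_B and WT_IMQ). These 3 differences share the KO_IMQ_Allo array and are not independent of each other.

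Whether the IMQ effect differed in the alloferon pair was tested against the common effect of the other 3 pairs. The difference was below 0 for 33 of 36 members, while 52.1% of all genes were above 0, and its median was -0.40 log2 units. In limma 0 of 36 members passed (0.00% of all genes called higher and 0.00902% lower), with an unadjusted p under 0.05 for 8 members and 8.24% of all genes. Oasl2 measured -1.42 ± 0.25 (adjusted p = 0.235), Dhx58 -0.87 ± 0.21 (adjusted p = 0.361), Lgals3bp -1.27 ± 0.31 (adjusted p = 0.363) and Oas2 -1.20 ± 0.34 (adjusted p = 0.424), followed by Trim30a, Parp9, Ddx58 and Sp100. The 2 genes called over the whole table, Mmp13 (a collagenase) and Sprr1b (a cornified envelope protein), are not interferon-stimulated genes of the list; they are named after their values were seen. The median IMQ differences of macrophage and neutrophil markers were also smallest in the KO Allo pair. Not every marker followed its median, since the macrophage marker Cd163 and the neutrophil marker Ltf differed most there, by 0.87 and 0.35. The median IMQ difference of 11 macrophage markers was 1.24, 1.32 and 1.10 in WT plain, KO plain and KO B and 0.24 in KO Allo, with 11, 11, 11 and 8 of 11 higher. Their median level was 7.52 to 7.83 on the arrays without IMQ, 8.98 to 9.24 on the other 3 IMQ arrays and 8.50 on KO_IMQ_Allo. The 11 neutrophil markers had median differences of 1.55, 1.08, 1.46 and 0.21, with 10, 9, 10 and 9 of 11 higher. The 4 endothelial markers had median differences of 0.89, 0.25, 0.46 and -0.29, with 4, 4, 4 and 0 of 4 higher. Neutrophil and endothelial medians both had the same order over the pairs as those of the members. The part of these 3 lists in the members' values was not tested. As a level over both IMQ states, the KO Allo arrays minus the KO plain and KO B arrays had a median of -0.13. Below 0 were 31 of 36 members, while 51.0% of all genes were above 0. In limma 0 members passed (0.00% of all genes each way), with an unadjusted p under 0.05 for 3 members and 5.69% of all genes. The 3 were Irf9 (-0.36 ± 0.11), Mx1 (-0.47 ± 0.15) and Usp18 (-0.41 ± 0.16), each with an adjusted p = 0.868.

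Upstream of the members, the endosomal receptor genes Tlr7, Tlr8 and Tlr9 rose with IMQ. Of 16 measured genes for induction sensors and adaptors, 5 rose in limma and 0 fell (1.90% and 1.19% of all genes). Their median was 0.47 log2 units. Tlr8 rose by 1.53 ± 0.25 (adjusted p = 0.0323), Tlr7, the imiquimod receptor, by 1.34 ± 0.20 (adjusted p = 0.0294), Unc93b1, which carries these receptors to endosomes, by 1.27 ± 0.24 (adjusted p = 0.0483), Aim2, a DNA sensor, by 1.01 ± 0.17 (adjusted p = 0.0379), and Tlr9 by 0.77 ± 0.13 (adjusted p = 0.0344). Tlr7 read 5.12 on WT_CTRL and 7.10 on WT_IMQ, 5.83 on KO_CTRL and 7.24 on KO_IMQ, 5.59 on KO_CTRL-B and 6.94 on KO_IMQ_B, and 6.36 on KO_Allo and 6.98 on KO_IMQ_Allo. The 4 IMQ arrays lay above the 4 others (5.96% of all genes), and KO_Allo was the highest array without IMQ. The 5 calls were all lost without the WT, KO plain or KO B pair and all kept without KO Allo. In the KO Allo pair the Tlr7 difference was 0.62 and that of Tlr8 0.53, against 1.35 to 1.98 and 1.71 to 2.15 in the others; the test of that difference gave an adjusted p = 0.493 and 0.272. Macrophage markers, of which 5 of 11 rose (Adgre1, Csf1r, Lyz2, C1qb and C1qc) against 1.90% of all genes, were higher in the same pairs. Their part was not tested. That count was 0 without the WT or KO B pair, 1 without KO plain and 10 without KO Allo.

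The type I interferon genes gave no calls. Of 16 measured 0 passed in limma (1.90% of all genes passed higher and 1.19% lower), with a median IMQ difference of 0.00. Ifnb1 read 3.50 on WT_CTRL and 3.90 on WT_IMQ, 3.89 on KO_CTRL and 4.11 on KO_IMQ, 3.38 on KO_CTRL-B and 3.66 on KO_IMQ_B, and 3.60 on KO_Allo and 3.58 on KO_IMQ_Allo. It was higher with IMQ in 3 of 4 pairs, by 0.40, 0.22 and 0.28. Keratinocyte interferon kappa (Ifnk) measured -0.03 ± 0.10 (adjusted p = 0.903), and the largest values were those of Ifna15, at 0.50 ± 0.12 (adjusted p = 0.088), and Ifna9, at 0.44 ± 0.14 (adjusted p = 0.158). The interferon alpha genes are near-identical copies, and a probe set may not tell them apart. For the receptor chains, their kinases and Stat3, a transcription factor, 0 of 5 passed, all 5 above 0: Ifnar2 measured 0.48 ± 0.17 (adjusted p = 0.195), Stat3 0.47 ± 0.14 (adjusted p = 0.13) and Ifnar1 0.37 ± 0.11 (adjusted p = 0.138). Without and with IMQ, Ifnar1 was at 8.67 and 9.22 in WT plain, 8.68 and 9.21 in KO plain, 8.69 and 9.04 in KO B, and 8.80 and 8.87 in KO Allo. In the type III system 1 of 4 genes rose in limma (1.90% of all genes). This was Il10rb, a receptor chain shared with IL-22 and IL-10, at 0.81 ± 0.15 (adjusted p = 0.0479). Ifnlr1 measured -0.42 ± 0.12 (adjusted p = 0.109). The Il10rb call was lost without the WT, KO plain or KO B pair.

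Interferon-stimulated genes outside the members also gave no calls. Of 39 measured, 0 passed, with a median of 0.15 and 30 above 0; Slfn2 measured 0.97 ± 0.24 (adjusted p = 0.0864) and Ifitm2 0.81 ± 0.20 (adjusted p = 0.0866). Their medians by pair were 0.41, 0.16, 0.26 and -0.11, with 35, 22, 34 and 11 of 39 higher. Genes that respond chiefly to interferon gamma passed in 0 of 25, with a median of 0.01. Gbp8, a guanylate-binding protein, measured 0.76 ± 0.20 (adjusted p = 0.0953) and Gbp4 -0.37 ± 0.28 (adjusted p = 0.542), the chemokine genes Cxcl10 -0.27 ± 0.10 (adjusted p = 0.207) and Cxcl9 0.18 ± 0.13 (adjusted p = 0.543), and Ifng itself -0.23 ± 0.10 (adjusted p = 0.306); its receptor chain Ifngr2 measured 0.43 ± 0.09 (adjusted p = 0.0553). MHC class II genes passed in 0 of 7 (median -0.13), with H2-Ab1 at -0.30 ± 0.14 (adjusted p = 0.307) and H2-DMb1 at 0.25 ± 0.10 (adjusted p = 0.258). Of 10 negative regulators 0 passed, with Samhd1, a nucleotide hydrolase, at 0.83 ± 0.21 (adjusted p = 0.0886) and the phosphatase gene Ptpn6 at 0.57 ± 0.13 (adjusted p = 0.0672). All of these were fitted over the same 4 pairs, where 1.90% of all genes were called higher and 1.19% lower.

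Plasmacytoid dendritic cell markers were examined because these cells are a known source of interferon alpha. Of 9 measured, 1 rose in limma (1.90% of all genes), Ly6d, by 0.61 ± 0.11 (adjusted p = 0.0386). That gene is also made by keratinocytes, and the call, like every call of this fit, was lost without the WT pair. Siglech read 5.58 on WT_CTRL and 5.51 on WT_IMQ, 5.55 on KO_CTRL and 5.68 on KO_IMQ, 5.17 on KO_CTRL-B and 5.34 on KO_IMQ_B, and 5.14 on KO_Allo and 5.25 on KO_IMQ_Allo. Siglech, a defining marker of these cells, overlapped between the groups and was higher with IMQ in 3 of 4 pairs. Irf8 measured 0.62 ± 0.13 (adjusted p = 0.0617) and Cox6a2, also a muscle gene, -0.79 ± 0.38 (adjusted p = 0.326). The list's median level was 5.73 to 6.21 on the arrays without IMQ and 5.95 to 6.47 on the IMQ arrays.

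**Figure D4:**
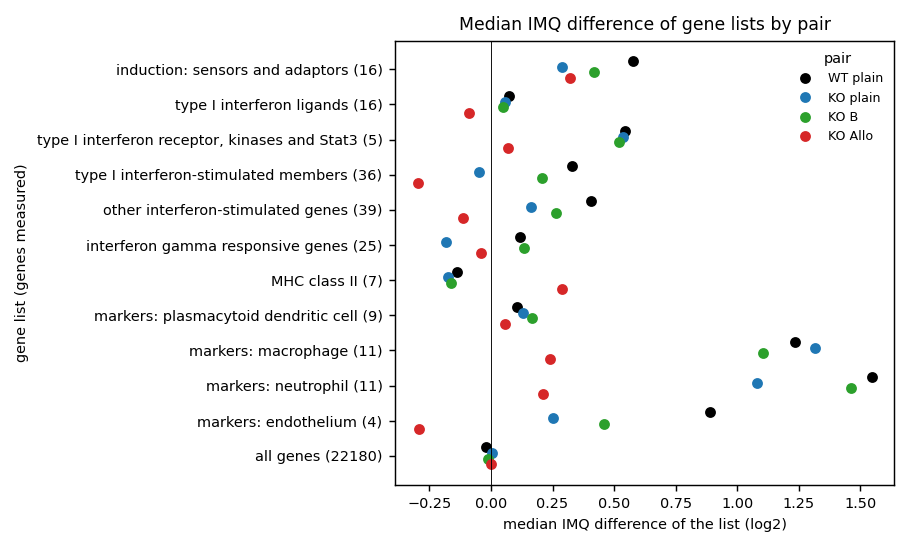
Each row is a gene list with the number of genes measured, and each point the median IMQ difference of that list in 1 pair, in log2 units. Macrophage and neutrophil markers lie at 1.08 or more in 3 pairs and at 0.24 and 0.21 in KO Allo, while the interferon-stimulated members lie between -0.30 and 0.33 and endothelial markers between -0.29 and 0.89.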

How the data were processed

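Dorsal skin RNA of 8 groups was measured on 1 Affymetrix array each. The deposited values are log2 expression levels that the authors made with RMA; the submitters' processing notes name Affymetrix Power Tools and also R 3.3.2 without its role; RMA normalises arrays to each other and compresses differences of dim probe sets. The study states 4 mice per group. Of 41345 probe sets, 23521 carry 1 gene symbol and 1814 several; 22180 genes remained after the probe set with the highest mean was taken for each. All 36 measured members matched RefSeq (GRCm38.p6) by gene ID. 0 array pairs held identical values.

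The members and lists were chosen with earlier results of these data known. Differences were fitted with limma 3.58.1 (R 4.3.3; lmFit and eBayes) over all 22180 genes, with pair levels as terms and Benjamini-Hochberg adjustment, at an adjusted p under 0.05; residual degrees of freedom were 3 for effects over all pairs and 2 where an effect was split by genotype or alloferon. Intervals are 95%. The scripts were tested on simulated data. Levels on every array are given for the 12 members with the widest range, Irf7, Irf9 and Stat2; those of Isg15, Ddx58, Parp14 and Ifitm3 were added after their values were seen. Outside the members, genes fixed by name and up to 2 per list with the largest IMQ effect are named. Alternatives were a filter on dim genes, the mean of a gene's probe sets, a trended robust prior, array medians subtracted, the B arrays read as second arrays of KO plain, no pair levels, and each pair left out in turn.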

Additional observations from a re-analysis of the deposited data

Results flagged for a closer look

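In the WT pair 6 of 36 members were higher with IMQ while all 3 KO pairs were lower, against 10.3% of all genes with this pattern or its reverse. Their WT differences were 0.65 log2 units for Ddx58, 0.34 for Herc6, 0.26 for Oasl1, 0.25 for Cmpk2, 0.22 for Mx2 and 0.020 for Irf9. Tested as WT minus KO in limma, the difference passed for 0 of 36 members, and each pattern of opposite signs was not tested by itself.

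The KO Allo pair was lower with IMQ while the other 3 pairs were higher for 9 of 36 members, against 16.2% of all genes with this pattern or its reverse. The KO Allo differences were -0.74 for Oasl2, -0.54 for Lgals3bp, -0.44 for Dhx58, -0.39 for Parp9, -0.38 for Oas2, -0.35 for Stat2, -0.13 for Eif2ak2, -0.10 for Parp12 and -0.075 for Adar. For Stat2 the KO B difference was 0.00, so its sign there rests on almost no difference. In limma the KO Allo difference against the other 3 pairs passed for 0 of 36 members; the opposite signs were not tested by themselves.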

How the results depend on the processing

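Over the 4 pairs the count of members called was 1, Trim25, without dim genes, with a trended robust prior, with array medians subtracted, with the B arrays as second arrays of KO plain and without pair levels, against 0 as reported; it was 0 to 3 when 1 pair was left out. All genes called numbered 1028 without dim genes and 454 with the B arrays as second arrays, against 685, and 0 to 1307 when 1 pair was left out. For the WT effect 1 gene was called with the trended robust prior and 0 to 41 with a pair left out, against 0. For the KO effect the counts were 50 with the trended prior, 58 without pair levels and 0 to 299 with a pair left out, against 0. For the KO Allo difference they were 33 with the trended prior and 0 to 24 with a pair left out, against 2. The causes were not tested. At 0.58 instead of 1 log2 unit, members past the threshold numbered 12 in the WT pair (3 at 1 unit), 8 in KO plain (2), and 4 in both KO B and KO Allo (0). Among 417 settings for single members, 396 kept direction and call, 8 gained a call, 13 changed the sign of an uncalled value and 0 reversed a call.

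With 1 array per label the number of arrays limits the precision. Of the 36 members, 11 had a mean below the median gene level of 6.06, where RMA compresses differences.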
